A study of Mus musculus with 17 samples.

Results

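The matrix metalloproteinases (MMPs), the ADAMTS proteases and ADAMTS-like proteins, and the tissue inhibitors of metalloproteinases (TIMPs) were followed in the ventricles of newborn mice during the first postnatal week. Members were the genes whose mouse symbol begins with Mmp or Timp and a digit, or with Adamts. The rule found 45 genes among the 16569 named genes of the deposited tables. They were listed under 51 RefSeq mRNA entries, and the entry with the highest mean over all libraries stood for a gene with several. The groups were the right ventricle (RV) and the left ventricle (LV) of untreated male C57Bl/6 mice at postnatal day 0 (P0), day 3 (P3) and day 7 (P7). The labels place P0 before closure of the ductus arteriosus. Each group had 3 libraries, except the RV at P7, which had 2. Libraries were made from total RNA of a whole chamber, so that fewer cells of a type and less RNA per cell cannot be told apart.

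MMPs are zinc proteases that cut collagen, gelatin, elastin and cell surface proteins. Most are made as inactive precursors, and some are anchored in the membrane. TIMPs bind their active sites. ADAMTS proteases are secreted relatives that trim procollagen, open up versican and other proteoglycans, and act on fibrillin and other matrix proteins, while ADAMTS-like proteins share their ancillary domains and have no protease domain. In the embryonic and newborn heart these enzymes are known for clearing the hyaluronan and versican rich jelly of the trabeculae and valves and for turning over the collagen network as the wall grows.

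Values are in RPKM, reads scaled to the length of the transcript and to the depth of the library, so that levels can be compared between genes. Whole reads could be recovered from them, and a library held between 27561845 and 41061058 reads. A member was tested if its entry reached 1 RPKM in at least 2 libraries, and changes are differences of log2(RPKM + 1), which understates the change of low genes. A change was called, and is written as "rose" or "fell", at an adjusted p under 0.05 in limma with Benjamini-Hochberg adjustment over all 10668 entries tested. The labels describe the libraries as biological replicates. Libraries stood apart in 1 respect before any comparison was made: the entry NM_008710, which carries no gene name here, measured 0.128 to 0.205 RPKM in 7 libraries and 2.99 to 15.6 RPKM in the other 10. The 7 were replicates 2 and 3 of the RV at P3, the LV at P3 and the LV at P7, and replicate 2 of the RV at P7. All P0 libraries were among the 10, so that changes from P0 are partly confounded with this split. A fit without them leaves 1 library in each P3 and P7 group and 4 residual degrees of freedom, all from the P0 groups. It is given for some changes of members between ages, and not for the chamber comparisons or the lists of other genes.

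Promoter sequences are shown for 4 abundant members whose level changed between P0 and P7 in both chambers, since they are read side by side with the changes described further on: Timp3 and Adamts1, which fell, and Timp2 and Mmp14, which rose. Each is the 250 bases before the start of the gene in RefSeq's table for GRCm38.p6, read 5′ to 3′ on the gene's strand. Capitals mark matches on either strand to the TATA box spelled TATAAA, the GC box spelled GGGCGG, the site CCAAT, or the AP-1 site spelled TGANTCA.
Timp3, chr10:86300162-86300411, plus strand: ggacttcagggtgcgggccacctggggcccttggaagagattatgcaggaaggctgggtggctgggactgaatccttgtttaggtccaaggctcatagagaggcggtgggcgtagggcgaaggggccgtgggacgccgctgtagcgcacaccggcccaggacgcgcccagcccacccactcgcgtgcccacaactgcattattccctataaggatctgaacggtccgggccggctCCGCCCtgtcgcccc
Adamts1, chr16:85803114-85803363, minus strand: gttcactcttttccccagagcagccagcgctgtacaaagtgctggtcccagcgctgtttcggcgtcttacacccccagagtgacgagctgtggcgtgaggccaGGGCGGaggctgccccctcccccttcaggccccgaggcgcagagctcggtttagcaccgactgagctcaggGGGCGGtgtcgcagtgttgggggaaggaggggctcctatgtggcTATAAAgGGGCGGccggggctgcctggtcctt
Timp2, chr11:118355412-118355661, minus strand: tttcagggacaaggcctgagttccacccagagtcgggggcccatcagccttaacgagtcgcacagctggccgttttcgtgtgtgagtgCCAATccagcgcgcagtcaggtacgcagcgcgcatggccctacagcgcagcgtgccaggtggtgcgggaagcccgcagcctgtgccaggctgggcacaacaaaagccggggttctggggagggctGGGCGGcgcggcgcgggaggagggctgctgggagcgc
Mmp14, chr14:54431348-54431597, plus strand: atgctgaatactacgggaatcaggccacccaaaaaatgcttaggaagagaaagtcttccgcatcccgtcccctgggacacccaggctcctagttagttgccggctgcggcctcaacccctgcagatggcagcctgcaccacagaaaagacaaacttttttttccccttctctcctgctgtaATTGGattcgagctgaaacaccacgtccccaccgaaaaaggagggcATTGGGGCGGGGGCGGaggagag

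Timp2 and Mmp14 each carried a GC box and a CCAAT site in this window, Timp3 a GC box, and Adamts1 GC boxes and a TATA box. In Mmp14, adjacent matches overlap. A promoter was in the table for 30 of the 45 members. The GC box was found in 5 of 8 members that rose in the LV, in 4 of 5 that fell, in 4 of 5 not called and in 6 of 12 not tested, against 32.7% of all 32851 promoters of this length. The CCAAT site was found in 3 of 8 that rose, 0 of 5 that fell, 1 of 5 not called and 1 of 12 not tested, against 33.8% of all. TATAAA was found in 0 of 8 that rose, 1 of 5 that fell and 1 of 5 not called. It was also in 4 of 12 not tested, against 12.4% of all promoters. TGANTCA was found in 0 of 8 that rose, 1 of 5 that fell and 0 of 5 not called. It was also in 3 of 12 not tested, against 6.75% of all promoters. Its match among the tested members lay before a second listed start of Mmp12 and not before the first. These are descriptions of letters in a window, not of binding.

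Between P0 and P7 the MMP and ADAMTS transcripts changed in both directions. In the RV, 10 of 29 tested members rose and 7 fell, while 9.81% of all tested entries were called higher and 46.1% lower. In the LV, 12 rose and 9 fell, beside 11.8% of all tested entries called higher and 53.0% lower. The share of members called in either direction was 58.6% in the RV, against 55.9% of all entries, and 72.4% in the LV, against 64.9%. The share of members that rose, 34.5% in the RV and 41.4% in the LV, lay above that of all entries, and the median change of the members was 0.25 in the RV and 0.12 in the LV, against -0.29 and -0.31 for all entries tested.

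The same 10 members rose in both chambers: Mmp2, Mmp14, Timp2, Adamts2, Adamts4, Adamts5, Adamts7, Adamts12, Adamts17 and Adamtsl4. The 7 that fell in both were Timp3, Adamts1, Adamts6, Adamts8, Adamts9, Adamts19 and Adamtsl1. Adamtsl1 passed the filter through P0 libraries alone, where it was high, so that the filter itself favoured a fall. In the LV, Timp4 and Adamtsl3 were also called higher and Adamts14 and Mmp12 lower, and no member was called in opposite directions. Both chambers may come from the same animals, so that these are not independent repeats.

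The tested entries as a whole were shifted down at P7, and the size of that shift depended on the scaling. With upper-quartile scaling the median change of all entries was -0.03 in the RV and -0.06 in the LV. The split of members then was 17 higher and 6 lower in the RV, beside 19.5% and 21.2% of all entries, and 16 higher and 7 lower in the LV, beside 21.7% and 29.3%. Mmp15, Mmp23, Adamts15 and Adamtsl2 passed the threshold as higher in both chambers under that scaling, whereas Adamts19 in the RV (adjusted p = 0.155) and Adamts8 and Adamts14 in the LV (adjusted p = 0.0691 and 0.243, limma) no longer passed it as lower. Without the 7 libraries low in NM_008710, the spread comes from the P0 groups alone, with 1 library at P7. Counts of calls from that fit are not read beside the others here, since no share of all entries was taken for it. The calls lost in the RV were those of Timp2 (0.36, limma adjusted p = 0.0894), Mmp14 (0.31, 0.379), Adamts4 (0.42, 0.117) and Adamts17 (0.63, 0.0631). Those lost in the LV were Timp4 (1.31, limma adjusted p = 0.0668), Mmp12 (-0.72, 0.19), Mmp14 (0.40, 0.275), Adamts4 (0.36, 0.187), Adamts12 (0.41, 0.0983), Adamts14 (-0.38, 0.103), Adamtsl3 (0.42, 0.0823) and Adamtsl4 (0.40, 0.103).

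**Figure D1:**
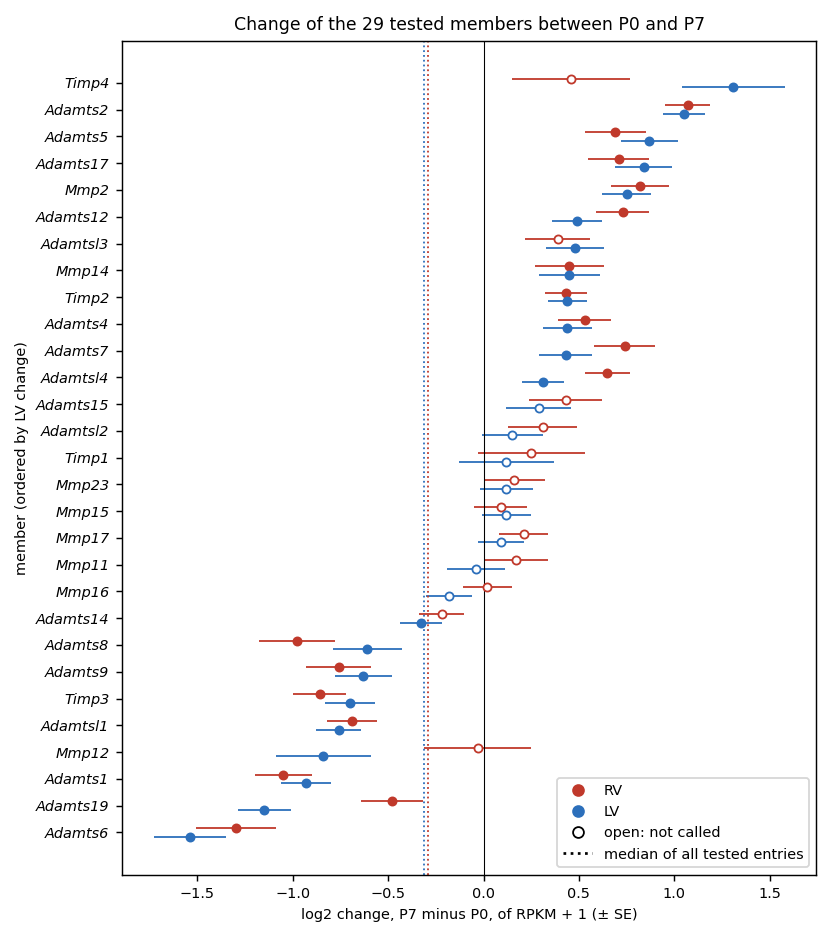
Change between P0 and P7 of the 29 tested members in the RV (red) and the LV (blue), as P7 minus P0 on the log2(RPKM + 1) scale with its SE on the horizontal axis; filled points passed an adjusted p of 0.05 and dotted lines mark the median of all tested entries in each chamber. Timp4, Adamts2 and Adamts5 stand at the upper end of the LV changes and Adamts6 at the lower end, and filled points of the RV and LV lie on the same side of 0 for the 17 members called in both.

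The MMP transcripts were dominated by a few genes. Mmp2, Mmp14 and Mmp15 together made up 84.6% to 88.9% of the summed MMP level in the group means. Mmp2 encodes gelatinase A, which cuts denatured collagen and is activated at the cell surface by the membrane protease of Mmp14 together with the inhibitor of Timp2. Mmp2 (NM_008610, chr8:92827290-92853421, GRCm38) measured 48.3, 35.4 and 40.8 RPKM in the RV at P0, 81.7, 66.6 and 79.5 at P3, and 64.5 and 83.2 at P7. The LV libraries had 45.3, 40.0 and 44.3 RPKM at P0, 68.2, 50.6 and 69.4 at P3, and 76.7, 65.3 and 78.0 at P7. Each P3 and P7 library was above each P0 library of its chamber. Mmp2 rose by 0.82 ± 0.15 (SE) log2 units in the RV (73.9 ± 13.2 RPKM at P7, n = 2, against 41.5 ± 6.51 at P0, n = 3, SD; limma adjusted p = 0.00018). In the LV it rose by 0.75 ± 0.13 (73.3 ± 6.99 RPKM at P7 against 43.2 ± 2.81 at P0, n = 3 each; limma adjusted p = 9.29e-05). The P3 libraries already stood apart from P0 in both chambers, with changes of 0.86 ± 0.13 in the RV and 0.52 ± 0.13 in the LV (limma adjusted p = 7.28e-05 and 0.00754).

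Mmp14 (NM_008608, chr14:54431598-54442456), the membrane type 1 MMP, measured 57.6, 34.2 and 34.8 RPKM in the RV at P0, 54.4, 64.7 and 58.8 at P3, and 51.1 and 62.2 at P7. The LV values were 51.9, 36.0 and 39.0 RPKM at P0, 48.8, 47.1 and 51.7 at P3, and 55.4, 51.4 and 66.1 at P7. Replicate 1 was the highest P0 library in each chamber, and the P7 and P0 groups overlapped. The P7 minus P0 change was 0.45 ± 0.18 in the RV and 0.45 ± 0.16 in the LV (limma adjusted p = 0.0408 and 0.0219). This call rested on single libraries: in the RV it was lost without P0 replicate 2 or 3 or P7 replicate 1 or 2 (changes of 0.33, 0.34, 0.59 and 0.31; limma adjusted p = 0.148, 0.149, 0.0506 and 0.266). In the LV it was lost without P0 replicate 2 or 3 or P7 replicate 3 (0.34, 0.40 and 0.34; adjusted p = 0.0995, 0.0714 and 0.105, limma). Testing all entries without a filter also ended it (adjusted p = 0.111 in the RV and 0.0674 in the LV, limma).

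Mmp15, the membrane type 2 MMP, was the steadiest of the abundant members, ranging from 38.5 to 57.3 RPKM over the 17 libraries. Its P7 minus P0 change was 0.09 ± 0.14 in the RV and 0.12 ± 0.13 in the LV (limma adjusted p = 0.596 and 0.424). Mmp23, a small membrane-anchored MMP with no hemopexin domain, ranged from 10.5 to 19.6 RPKM and was called in no comparison. Mmp11, stromelysin 3, which furin-like proteases activate inside the cell, measured 7.28, 4.53 and 6.03 RPKM in the RV at P0, 9.11, 7.85 and 8.1 at P3, and 6.46 and 6.91 at P7. In LV libraries it had 8.17, 5.25 and 6.8 RPKM at P0, 8.3, 6.24 and 7.26 at P3, and 7.61, 5.4 and 6.44 at P7. Mmp11 rose between P0 and P3 in the RV (0.45 ± 0.15, limma adjusted p = 0.034), where the P3 libraries lay above all P0 libraries, but leaving out any of 5 of its 6 libraries (all but P0 replicate 1) ended the call. Mmp16 and Mmp17, the membrane types 3 and 4, stayed at or below 1.68 RPKM in every library.

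Mmp12, macrophage elastase, was low and uneven. LV levels were 0.176, 0.973 and 2.38 RPKM at P0 and 0.203, 0.0835 and 0.0457 at P7, so that the groups overlapped, and the fall of 0.84 ± 0.25 log2 units (limma adjusted p = 0.00626) was lost without P0 replicate 3 (-0.46, adjusted p = 0.0589, limma). All RV libraries lay between 0.0460 and 0.402 RPKM. Mmp12 passed the filter through P0 replicate 3 and P3 replicate 2 (1.265 RPKM) of the LV alone. The remaining MMPs did not pass the filter. Of these, Mmp25 reached 0.676 RPKM, the neutrophil collagenase Mmp8 reached 0.608, collagenase 3 (Mmp13) 0.502, gelatinase B (Mmp9) 0.23 and Mmp28 0.208. Mmp3, Mmp10, Mmp19, Mmp21 and Mmp24 stayed under 0.1 RPKM. The measured collagenases, Mmp8 and Mmp13, and gelatinase B thus stayed under 1 RPKM in every library, whereas Mmp2, Mmp14 and Mmp15 lay between 34.2 and 83.2 RPKM.

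**Figure D2:**
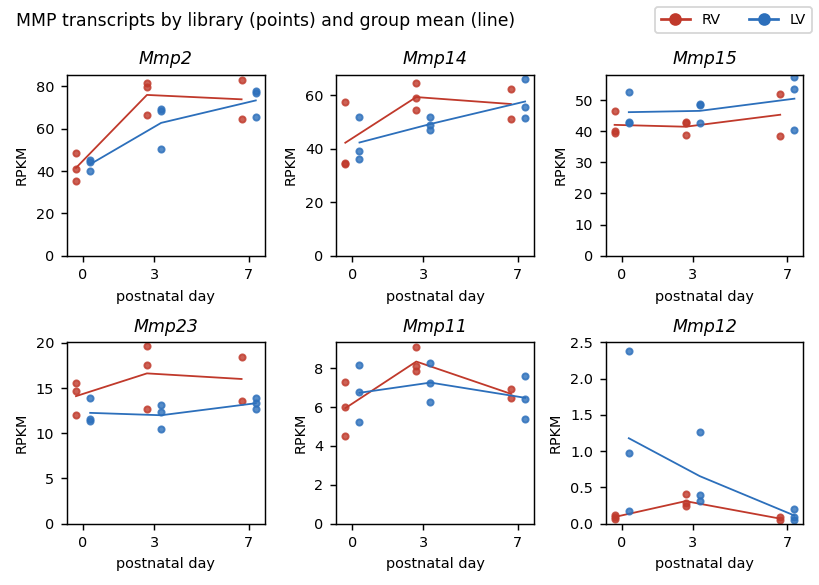
RPKM of 6 MMP genes in each library (points) and the group mean (lines) against postnatal day, RV in red and LV in blue. Mmp2 stood higher at P3 and P7 than at P0 in each chamber, Mmp15 ranged from 38.5 to 57.3 RPKM throughout, and Mmp12 reached 2.38 RPKM in 1 LV library at P0.

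Among the inhibitors, Timp2 and Timp3 were far more abundant than Timp1 and Timp4, and they moved in opposite directions. Timp3 encodes the inhibitor that is held in the matrix and that also blocks ADAMTS proteases. Timp3 (NM_011595, chr10:86300412-86349505) measured 54.1, 50.0 and 60.7 RPKM in the RV at P0, 42.7, 33.5 and 38.3 at P3, and 25.7 and 34.2 at P7. The level in the LV was 52.6, 51.5 and 69.0 RPKM at P0, 40.5, 33.5 and 41.6 at P3, and 34.5, 34.2 and 36.2 at P7. Every P0 library was above every later library of its chamber. Timp3 fell by 0.86 ± 0.14 log2 units in the RV (30.0 ± 6.06 RPKM at P7, n = 2, against 54.9 ± 5.41 at P0, n = 3; limma adjusted p = 6.54e-05). It fell by 0.70 ± 0.13 in the LV (35.0 ± 1.08 RPKM at P7 against 57.7 ± 9.78 at P0, n = 3 each; limma adjusted p = 0.000115). Relative to the median of all entries these changes were -0.58 in the RV and -0.39 in the LV.

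Timp2 (NM_011594, chr11:118301061-118355411), the inhibitor that also takes part in activating the Mmp2 product, measured 59.3, 47.5 and 48.0 RPKM in the RV at P0, 66.8, 59.6 and 65.4 at P3, and 66.2 and 73.2 at P7. LV libraries measured 56.0, 47.3 and 47.7 RPKM at P0, 53.7, 49.7 and 55.9 at P3, and 71.2, 61.1 and 73.9 at P7. The P7 libraries lay above the P0 libraries in each chamber. The rise was 0.43 ± 0.11 in the RV and 0.44 ± 0.10 in the LV (limma adjusted p = 0.00384 and 0.00101), and the RV call was lost without the 7 libraries low in NM_008710 (0.36, limma adjusted p = 0.0894). In the LV the P3 libraries overlapped with P0, and the P7 minus P3 step was called (0.36 ± 0.10, limma adjusted p = 0.0115, lost without P7 replicate 3).

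Timp4, which in the adult is known for its high level in heart, measured 0.614, 3.94 and 1.93 RPKM in the RV at P0, 4.42, 3.66 and 2.99 at P3, and 2.66 and 3.2 at P7. The LV libraries had 0.929, 2.43 and 0.862 RPKM at P0, 3.93, 4.47 and 4.46 at P3, and 4.72, 4.21 and 5.3 at P7. The LV libraries at P7 and P3 lay above those at P0 and overlapped with each other. In the RV, the P7 and P3 libraries overlapped with each other and with P0, where replicate 2 stood highest. Timp4 rose by 1.31 ± 0.27 in the LV (4.74 ± 0.544 RPKM at P7 against 1.41 ± 0.888 at P0, n = 3 each; limma adjusted p = 0.000419), and without the 7 libraries low in NM_008710 the change was again 1.31 (limma adjusted p = 0.0668). In the RV the change was 0.46 ± 0.31 (2.93 ± 0.382 RPKM at P7, n = 2, against 2.16 ± 1.68 at P0, n = 3; limma adjusted p = 0.212), and without P0 replicate 2 it passed the threshold at 0.85 (adjusted p = 0.00973, limma). The difference between the chambers, RV change minus LV change, was -0.85 ± 0.41 and was not called (limma adjusted p = 0.998). Timp1, the inhibitor gene induced by growth factors and injury, measured 4.1, 2.59 and 1.38 RPKM in the RV at P0, 3.87, 2.33 and 1.9 at P3, and 2.39 and 4.19 at P7. The LV values were 3.16, 2.58 and 1.53 RPKM at P0, 1.92, 3.07 and 2.85 at P3, and 2.27, 3.2 and 2.53 at P7. Its groups overlapped throughout, and it was called in no comparison.

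**Figure D3:**
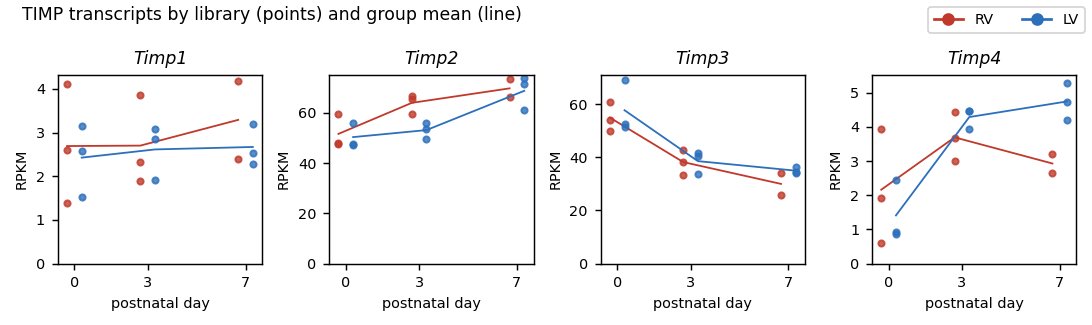
RPKM of the 4 TIMP genes in each library (points) and the group mean (lines) against postnatal day, RV in red and LV in blue. The P0 libraries of Timp3 stand above the P7 libraries, those of Timp2 below them, and the P0 libraries of Timp4 in the RV are spread between 0.614 and 3.94 RPKM.

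The summed TIMP level stayed within a narrow range while its make-up changed. The sum was 111 ± 7.02, 109 ± 9.45 and 106 ± 12.8 RPKM in the RV at P0, P3 and P7 (SD, n = 3, 3 and 2), and 112 ± 7.55, 98.6 ± 7.2 and 111 ± 7.64 RPKM in the LV (n = 3 each). Timp3 made up 49.4% ± 4.34, 35.1% ± 1.26 and 28.1% ± 2.33 of it in the RV at P0, P3 and P7, and 51.4% ± 5.81, 39.1% ± 1.83 and 31.5% ± 1.53 in the LV. The share of Timp2 was 46.3% ± 3.68, 59.0% ± 1.99 and 66.0% ± 3.18 in the RV, and 45.1% ± 4.81, 53.9% ± 0.721 and 61.8% ± 2.01 in the LV. The ranges of these shares at P7 and P0 did not overlap in either chamber. The summed MMP level was 201 ± 15.6 RPKM at P7 against 149 ± 25.9 at P0 in the RV, and 204 ± 21.7 against 155 ± 18.4 in the LV. The ratio of the TIMP sum to the MMP sum was 0.526 ± 0.0233 at P7 against 0.759 ± 0.0811 at P0 in the RV, and 0.546 ± 0.0232 against 0.728 ± 0.0761 in the LV. Shares and ratios within a library do not depend on its scaling. They are given as a description with no test, since transcript levels say nothing of the amount of protein.

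**Figure D4:**
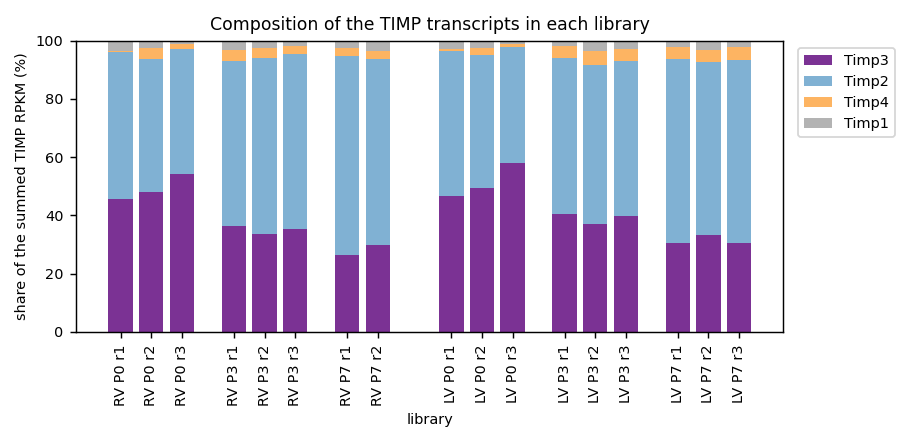
Share of the summed TIMP RPKM taken by Timp3, Timp2, Timp4 and Timp1 in each of the 17 libraries, in percent, ordered by chamber and postnatal day. The Timp3 share averaged 49.4% at P0 and 28.1% at P7 in the RV, and 51.4% at P0 and 31.5% at P7 in the LV.

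The ADAMTS genes that act on versican and aggrecan split by gene. Of 6 tested, Adamts4 and Adamts5 rose and Adamts1, Adamts8 and Adamts9 fell in both chambers, and Adamts15 was called in neither. Adamts1 (NM_009621, chr16:85793827-85803113), which is known for cleaving versican in the trabecular layer, measured 19.2, 13.9 and 17.4 RPKM in the RV at P0, 14.4, 15.2 and 16.4 at P3, and 6.77 and 8.37 at P7. In LV libraries it had 16.0, 15.7 and 16.8 RPKM at P0, 13.9, 9.45 and 14.3 at P3, and 8.74, 7.70 and 7.63 at P7. The P7 libraries lay below all others of their chamber. Adamts1 fell by 1.05 ± 0.15 in the RV (7.57 ± 1.13 RPKM at P7, n = 2, against 16.8 ± 2.69 at P0, n = 3; limma adjusted p = 1.55e-05) and by 0.93 ± 0.13 in the LV (8.03 ± 0.617 RPKM at P7 against 16.2 ± 0.606 at P0, n = 3 each; adjusted p = 9.87e-06, limma). The P7 minus P3 change was -0.93 ± 0.15 in the RV and -0.57 ± 0.13 in the LV (limma adjusted p = 0.000583 and 0.00377), and these calls were lost without the 7 libraries low in NM_008710, which sets 1 library against 1 (-0.99 and -0.62; limma adjusted p = 0.0749 and 0.109). The P3 minus P0 change was -0.12 ± 0.13 in the RV and -0.36 ± 0.13 in the LV (limma adjusted p = 0.555 and 0.0529). In the LV the P3 libraries lay below those at P0, and the early change passed the threshold with voom (-0.39, limma adjusted p = 0.0439), with the filter of 3 RPKM (0.0488), and without P3 replicate 1 (-0.44, 0.0358) or P3 replicate 3 (-0.46, 0.0317) or, through the shared estimate of spread, RV P0 replicate 1 or 2.

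Adamts5 (NM_011782, chr16:85858157-85901125) lies beside Adamts1 on the same chromosome and encodes the main aggrecanase of mouse cartilage. It measured 3.07, 2.34 and 2.37 RPKM in the RV at P0, 3.85, 3.90 and 4.15 at P3, and 4.08 and 5.54 at P7. LV levels were 2.53, 2.76 and 2.76 RPKM at P0, 4.88, 2.74 and 4.69 at P3, and 5.87, 5.47 and 5.84 at P7. It thus changed in the direction opposite to its neighbour, and its P7 and P0 libraries did not overlap. The rise was 0.69 ± 0.16 in the RV and 0.87 ± 0.15 in the LV (limma adjusted p = 0.00159 and 4.51e-05).

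Adamts9, another versican protease, measured 12.9, 12.6 and 14.2 RPKM in the RV at P0, 11.7, 8.57 and 9.89 at P3, and 6.94 and 7.89 at P7. The level in the LV was 14.2, 13.4 and 14.9 RPKM at P0, 13.5, 7.54 and 11.9 at P3, and 8.03, 8.70 and 9.53 at P7. It fell by 0.76 ± 0.17 in the RV and by 0.63 ± 0.15 in the LV (limma adjusted p = 0.000873 and 0.00108). Adamts8 fell by 0.98 ± 0.20 in the RV and by 0.61 ± 0.18 in the LV. Its chromosomal neighbour Adamts15 ranged from 1.46 to 3.71 RPKM, with changes of 0.43 ± 0.19 in the RV and 0.29 ± 0.17 in the LV (limma adjusted p = 0.0567 and 0.14), and with the replicate number as a block the RV change passed the threshold (0.45, limma adjusted p = 0.0314). Adamts4 rose by 0.53 ± 0.14 in the RV, a call lost without P7 replicate 2 (0.42, limma adjusted p = 0.0669), and by 0.44 ± 0.13 in the LV. Adamts20 reached 0.103 RPKM.

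The procollagen N-proteinases, which remove the amino-terminal propeptide of fibrillar procollagens, also split. Adamts2 rose to 3.36 ± 0.538 RPKM in the RV at P7 (n = 2), against 1.07 ± 0.0721 at P0 (n = 3), a change of 1.07 ± 0.12 (limma adjusted p = 8.4e-07). It rose to 3.14 ± 0.182 RPKM in the LV at P7, against 1.0 ± 0.0332 at P0 (n = 3 each), a change of 1.05 ± 0.11 (limma adjusted p = 1.49e-07). It was the one member called higher in each of the 4 steps between neighbouring ages, but in the RV the P7 minus P3 call (0.38 ± 0.12, limma adjusted p = 0.0361) was lost without replicate 1 or 2 of either age. Adamts14 changed by -0.22 ± 0.12 in the RV (limma adjusted p = 0.12) and fell by 0.33 ± 0.11 in the LV (limma adjusted p = 0.012), a call lost without P0 replicate 2 or P7 replicate 2 (-0.27 each; adjusted p = 0.055 and 0.0553, limma). Adamts3 reached 0.102 RPKM.

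Adamts6 (NM_001081020, chr13:104286518-104496695), a relative of Adamts10 that is needed for normal heart development in the mouse, had the largest fall among the tested members in both chambers on the log2(RPKM + 1) scale. That scale understates low genes, and by the ratio of mean RPKM, P7 over P0, Mmp12 stood lower in the LV (0.0939, against 0.222 for Adamts6). Adamts6 measured 5.29, 4.06 and 3.42 RPKM in the RV at P0, 3.29, 1.78 and 3.69 at P3, and 0.82 and 1.44 at P7. LV libraries measured 5.33, 4.84 and 5.36 RPKM at P0, 3.72, 2.19 and 3.09 at P3, and 0.764, 1.39 and 1.29 at P7. The P7 libraries lay below all P0 and P3 libraries. Adamts6 fell by 1.30 ± 0.21 in the RV (1.13 ± 0.437 RPKM at P7, n = 2, against 4.26 ± 0.952 at P0, n = 3; limma adjusted p = 5.92e-05) and by 1.54 ± 0.19 in the LV (1.15 ± 0.336 RPKM at P7 against 5.18 ± 0.294 at P0, n = 3 each; adjusted p = 1.65e-06, limma).

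Adamts19, in which recessive variants cause valve disease in humans, had its lowest P0 values in the RV. It measured 4.56, 3.46 and 4.36 RPKM in the RV at P0, 6.29, 4.90 and 5.11 at P3, and 2.21 and 3.16 at P7. The LV libraries had 8.41, 6.06 and 7.87 RPKM at P0, 7.28, 5.01 and 6.36 at P3, and 2.69, 2.70 and 2.98 at P7. The RV and LV libraries did not overlap at P0, and overlapped at P3 and P7. The P7 minus P0 fall was 0.48 ± 0.16 in the RV (limma adjusted p = 0.0164) and 1.15 ± 0.14 in the LV (adjusted p = 1.91e-06, limma). The RV call was lost without P0 replicate 1 (-0.42, adjusted p = 0.0543, limma) or P7 replicate 1 (-0.30, adjusted p = 0.247, limma). The difference between the chambers' changes, RV minus LV, was 0.66 ± 0.22 and was not called (adjusted p = 0.746, limma).

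Adamts7 and Adamts12, which both cleave cartilage oligomeric matrix protein, rose. Adamts7 measured 3.87, 2.95 and 3.05 RPKM in the RV at P0, 6.19, 4.57 and 5.47 at P3, and 6.51 and 5.76 at P7. The LV values were 4.24, 3.87 and 3.00 RPKM at P0, 6.28, 4.82 and 6.43 at P3, and 6.46, 4.47 and 5.14 at P7. Each P3 and P7 library lay above the P0 libraries of its chamber. The P7 minus P0 rise was 0.74 ± 0.16 in the RV and 0.43 ± 0.14 in the LV (limma adjusted p = 0.000852 and 0.0132), and the LV call was lost without P0 replicate 3 (0.32, limma adjusted p = 0.0826) or P7 replicate 1 (0.31, limma adjusted p = 0.0852). Adamts12 measured 3.37, 3.07 and 2.51 RPKM in the RV at P0, 4.96, 3.83 and 4.46 at P3, and 4.89 and 6.36 at P7. In LV libraries it had 3.38, 3.35 and 2.89 RPKM at P0, 4.37, 3.35 and 4.63 at P3, and 4.58, 4.68 and 5.47 at P7. Its rise was 0.73 ± 0.14 in the RV and 0.49 ± 0.13 in the LV (limma adjusted p = 0.000365 and 0.00286). Adamts17, linked in humans to a fibrillin disorder, rose by 0.71 ± 0.16 in the RV and by 0.84 ± 0.15 in the LV. Adamts10, Adamts16, Adamts18 and Adamts13, the protease of von Willebrand factor, reached at most 0.125 RPKM.

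**Figure D5:**
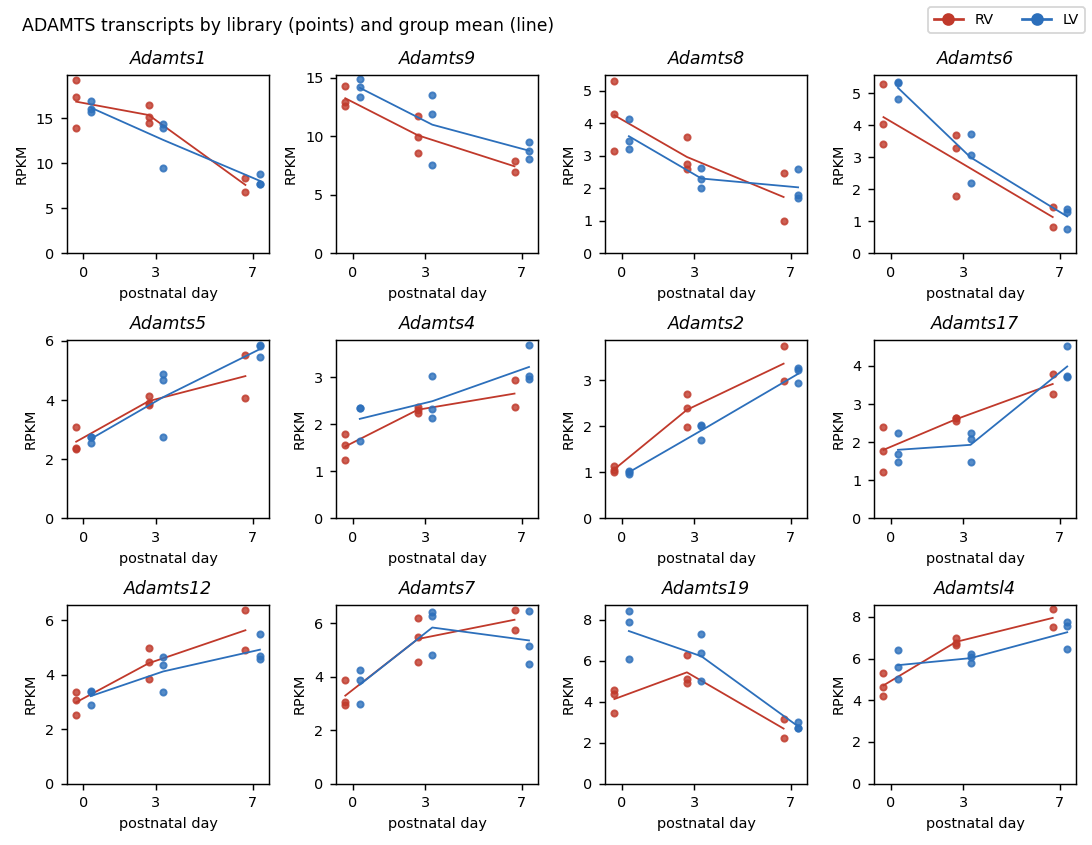
RPKM of 11 ADAMTS genes and Adamtsl4 in each library (points) and the group mean (lines) against postnatal day, RV in red and LV in blue. Adamts1, Adamts9, Adamts8, Adamts6 and Adamts19 were lower at P7 than at P0, and the other 7 genes were higher, in both chambers.

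All 4 ADAMTS-like genes measured here passed the filter. Adamtsl4, whose product binds fibrillin microfibrils, measured 5.3, 4.22 and 4.62 RPKM in the RV at P0, 6.76, 6.98 and 6.67 at P3, and 7.54 and 8.37 at P7. LV levels were 5.6, 6.42 and 5.03 RPKM at P0, 6.06, 5.81 and 6.2 at P3, and 7.78, 6.46 and 7.57 at P7. The RV groups were separated at each step, whereas in the LV the P0 and P3 libraries overlapped. The P7 minus P0 rise was 0.65 ± 0.12 in the RV and 0.31 ± 0.11 in the LV (limma adjusted p = 0.00016 and 0.0157), and the LV call was lost without P0 replicate 3 or P7 replicate 1 or 3 (0.24, 0.26 and 0.28; limma adjusted p = 0.0875, 0.063 and 0.0539). Adamtsl1 fell by 0.69 ± 0.13 in the RV (0.337 ± 0.00217 RPKM at P7, n = 2, against 1.16 ± 0.0565 at P0, n = 3) and by 0.76 ± 0.12 in the LV (0.257 ± 0.0572 RPKM at P7 against 1.14 ± 0.348 at P0, n = 3 each). No P3 or P7 library of Adamtsl1 reached 1 RPKM, so that it was tested through its P0 values alone. Adamtsl3 changed by 0.39 ± 0.17 in the RV (limma adjusted p = 0.0534; 0.40 and 0.0343 with the replicate block) and rose by 0.48 ± 0.15 in the LV (limma adjusted p = 0.01). Adamtsl2, mutated in a human disorder of microfibrils, ranged from 1.90 to 4.24 RPKM and was called in no comparison.

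The steps between neighbouring ages divided these changes. The steps of a chamber share its P3 libraries and are given side by side. In the RV, 12 members rose and 1, Timp3, fell between P0 and P3, beside 9.72% and 21.5% of all entries, and 1 rose and 4 fell between P3 and P7, beside 2.5% and 14.8%. The 12 were Mmp2, Mmp11, Mmp14, Mmp16, Mmp17, Timp2, Adamts2, Adamts4, Adamts5, Adamts7, Adamts12 and Adamtsl4. The Mmp17 call (0.31 ± 0.12, limma adjusted p = 0.0478) was lost when any P3 or P7 library of either chamber was left out. Mmp17 passed the filter through LV P0 replicate 1 (1.10 RPKM) and RV P3 replicate 2 (1.04 RPKM) alone. The Mmp16 call (0.33 ± 0.12, limma adjusted p = 0.0399) was lost without P0 replicate 2 or 3 or P3 replicate 1 or 3. Mmp16 passed the filter through RV libraries alone, namely P0 replicate 1 and each P3 replicate. In the LV, 5 rose and 3 fell between P0 and P3, beside 7.26% and 20.6%, and 4 rose and 3 fell between P3 and P7, beside 6.56% and 27.9%. In the LV the early calls were Mmp2, Timp4, Adamts2, Adamts5 and Adamts7, which rose, and Timp3, Adamts6 and Adamtsl1, which fell. Later calls in the LV were Timp2, Adamts2, Adamts5 and Adamts17, which rose, and Adamts1, Adamts6 and Adamts19, which fell. The early Adamts5 call in the LV was lost without P0 replicate 1 or 3 or P3 replicate 1 or 3. Its later call was lost without P3 replicate 2 (0.22, limma adjusted p = 0.156) or any P7 replicate. Early LV calls of Adamts6, Adamts7 and Adamtsl1 were likewise each lost without a single library.

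These counts depended on single libraries. No share of all entries called was taken with 1 library left out, so that a shift in the call rate of all entries cannot be told apart. In the RV the early count of 13 was 5 without P0 replicate 3 and 8 without P3 replicate 3, and the later count of 5 was 3 without P3 replicate 3 and 1 without P7 replicate 1. In the LV the early count of 8 was 5 without P0 replicate 3. The fit without the 7 libraries low in NM_008710 has 1 library in each P3 and P7 group and takes all 4 residual degrees of freedom from the P0 groups. Lone libraries are then assumed to vary like those at P0, so that counts from it say nothing of stability and are not given. With upper-quartile scaling the later counts were 9 in the RV (6 higher and 3 lower, beside 6.57% and 4.27% of all entries) and 12 in the LV (9 higher and 3 lower, beside 11.8% and 15.3%).

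No member was called between RV and LV at P0, P3 or P7 or averaged over the ages, where 0.141%, 0.825%, 0.159% and 1.61% of all entries were called by limma. At an unadjusted p under 0.05 there were 4 members at P0, 6 at P3, 0 at P7 and 6 over the ages. The share of all entries at that threshold was not taken, so that these counts cannot be read as an excess among members. The voom alternative in limma, run on recovered reads, also called 0 in each of these comparisons. The member nearest to the threshold was Adamts19 at P0, with an RV minus LV difference of -0.72 ± 0.14 (4.13 ± 0.588 RPKM in the RV against 7.45 ± 1.23 in the LV, n = 3 each; limma adjusted p = 0.0527).

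With the replicate number as a block, which pairs the chambers, 2 members were lower in the RV at P0: Adamts19 (-0.72 ± 0.10, limma adjusted p = 0.00101) and Mmp12 (-0.87 ± 0.20, limma adjusted p = 0.0422). Mmp12 passed the filter through LV libraries alone, among them P0 replicate 3, so that the filter itself favoured a lower RV level. Its LV values at P0 were uneven, at 0.176, 0.973 and 2.38 RPKM. The block called 0.741% of all entries at P0. At P3 it called 3 members higher in the RV, Mmp16 (0.39), Mmp23 (0.42) and Timp2 (0.26), beside 6.12% of all entries, and at P7 it called 0, beside 1.43%. Mmp16 passed the filter through RV libraries alone (highest LV value 0.990 RPKM), so that the filter itself favoured a higher RV level. Averaged over the ages, Mmp16 and Mmp23 were higher and Adamts19, Adamtsl3 and Mmp12 lower in the RV, beside 9.52% of all entries. The filter limits given for Mmp16 and Mmp12 apply here too. No member's P7 minus P0 change differed between the chambers at the threshold, with or without the block. Without the block, limma called 0.0375% of all entries. At an unadjusted p under 0.05 there were 3 members, again with no share of all entries taken.

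Genes that act with these proteases were followed as a fixed list of 33, of which 26 were tested. Between P0 and P7, 7 rose and 8 fell in the RV, beside 9.81% of all entries called higher and 46.1% lower, and 8 rose and 7 fell in the LV, beside 11.8% and 53.0%. The largest rises were those of Pcolce2, an enhancer of procollagen C-proteinase (2.71 ± 0.17 in the RV and 2.75 ± 0.16 in the LV), and Pcsk6, a proprotein convertase (2.17 ± 0.17 and 2.35 ± 0.16). Lrp1, the receptor that clears MMP and TIMP complexes, rose by 0.74 ± 0.25 and 0.58 ± 0.22, and Serpinf1 by 1.20 ± 0.14 and 0.95 ± 0.13. A2m, a plasma protease trap, fell by 1.28 ± 0.16 in the RV and 1.11 ± 0.14 in the LV, the urokinase receptor gene Plaur by 1.03 ± 0.19 and 0.69 ± 0.17, and Tll1, a tolloid procollagen C-proteinase, by 0.68 ± 0.14 and 0.66 ± 0.13. Reck, a membrane-bound inhibitor of MMPs, had changes of -0.08 ± 0.18 and -0.06 ± 0.16 (limma adjusted p = 0.709 and 0.732).

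Of 18 matrix genes listed as substrates, 15 were tested, and 4 rose and 4 fell in the RV while 5 rose and 5 fell in the LV, to be read against the same shares of all entries. Elastin (Eln) rose by 1.57 ± 0.26 in the RV and 1.52 ± 0.23 in the LV, decorin (Dcn) by 1.26 ± 0.15 and 1.09 ± 0.13, biglycan (Bgn) by 1.0 ± 0.12 and 0.94 ± 0.11, and fibrillin 1 (Fbn1) by 0.73 ± 0.19 and 0.72 ± 0.17. Fibrillin 2 (Fbn2), the fetal form, fell by 1.16 ± 0.23 and 1.75 ± 0.21, and Hapln1, which links hyaluronan and versican, by 1.05 ± 0.24 and 0.96 ± 0.22. Each of these genes passed the threshold in both chambers (limma). The versican gene Vcan could not be tested, since its entries stayed at or under 0.224 RPKM. Vcan has several entries, and of genes with several entries 40.7% had one past the filter, against 65.8% of genes with 1 entry. The same limit touches Adamts3, Adamts20, Mmp19 and Mmp28 among the members, and Timp1, the tested member with more than 1 entry.

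Cell type markers moved with age beside these genes, and counts of rises among them stand beside 9.81% of all entries called higher in the RV and 11.8% in the LV. The summed level of 7 fibroblast markers was 616 to 723 RPKM in the RV at P7, against 327 to 452 at P0, and 578 to 650 RPKM in the LV at P7, against 358 to 470 at P0. Of 6 tested fibroblast markers, 4 rose in the RV and 3 in the LV. The 6 endothelial markers summed to 280 to 281 RPKM at P7 against 183 to 222 at P0 in the RV and to 360 to 408 against 183 to 211 in the LV. Of these, 4 rose and 1 fell in the RV, and 5 rose in the LV. The 5 macrophage markers measured summed to 66.0 to 74.4 RPKM at P7 against 26.5 to 43.9 at P0 in the RV, and to 71.4 to 78.4 against 41.1 to 55.0 in the LV, and 5 of 5 rose in the RV and 4 of 5 in the LV.

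Other marker sums were lower at P7, and the counts of falls among them stand beside 46.1% of all entries called lower in the RV and 53.0% in the LV. The 5 atrial markers summed to 16.6 to 64.0 RPKM at P7 against 361 to 575 at P0 in the RV, and to 58.2 to 72.1 against 259 to 326 in the LV. Of 4 tested, Myl7, Myl4 and Bmp10 fell and Nr2f1 rose in both chambers. The fifth, Sln, stayed at or under 0.122 RPKM in every library, those at P0 included. The 3 measured genes of the endocardial list summed to 30.4 to 42.1 RPKM at P7 against 65.0 to 114 at P0 in the RV, and to 26.4 to 29.5 against 58.4 to 75.2 in the LV. Both that were tested, Plvap and Cdh11, fell. Npr3 stayed at or under 0.631 RPKM and Nfatc1 was not measured, so that the list rests on Plvap and Cdh11. The 5 epicardial markers summed to 34.6 to 35.9 RPKM against 38.7 to 86.8 in the RV, where 3 fell, and to 13.7 to 22.1 against 27.8 to 66.3 in the LV, where 4 fell. The 7 neutrophil markers summed to 5.52 to 8.46 RPKM against 7.84 to 26.5 in the RV, where 2 of 3 tested fell, and to 9.16 to 12.8 against 17.7 to 23.0 in the LV, where 1 fell.

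The 6 smooth muscle and pericyte markers summed to 593 to 720 RPKM at P7 against 657 to 804 at P0 in the RV, and to 490 to 516 against 654 to 759 in the LV. Of 4 tested, Rgs5 rose and Acta2 and Cspg4 fell in both chambers. The 5 cartilage and valve markers summed to between 4.36 and 9.10 RPKM over all libraries. The 7 cardiomyocyte markers, all tested, summed to 27700 to 31100 RPKM at P7 against 31800 to 40800 at P0 in the RV, and to 27200 to 29000 against 32800 to 37800 in the LV, above every other marker sum. Among them, Myh6 and Tnni3 rose, and Tnnt2, Actc1 and Myl2 fell, in both chambers. These calls are also to be read against the shares of all entries given above. Markers at 0 in at least 1 library were Camp, Elane and Mpo for neutrophils, Sln and Bmp10 for atrium, and Chad and Cnmd for cartilage. The part of these shifts in the changes of Mmp2, the TIMPs and the ADAMTS genes was not tested.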

How the data were processed

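The authors deposited 1 table per library with 20624 RefSeq entries in RPKM. Neither a header nor a label names the unit, which was read from the values: at a tolerance of 0.02 reads, 20624 of 20624 entries were whole reads once scaled to length and depth. The submitters' processing notes name STAR 2.4.0j and mm10. Counting method, annotation and filters were not given in the sources used here. Libraries are strand-specific and paired-end, per the labels. RefSeq and GENCODE tables named 20375 and 80 entries, and 169 stayed unnamed. 6 further genes that meet the rule by symbol (among them Mmp7, Mmp20 and Mmp27) are not analysed here.

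The 10668 entries that reached 1 RPKM in 2 or more libraries were fitted as log2(RPKM + 1) with limma 3.58.1 in R 4.3.3, as means of 6 groups over all 17 libraries with a trended moderated variance, in 11 two-sided comparisons. Since the unit is RPKM, a count test was not the main test. Script checks on simulated data preceded the fit. The text gives every library's value for the TIMP genes and for members that were called in any comparison and averaged 5 RPKM or more in the higher of its groups, and gives other members by change, range or highest value. Libraries of the RV and LV with the same age and number deviated together (correlation 0.269 to 0.587 in 8 of 8 pairs). Deviations were taken from group means of 2 or 3 libraries, so that the pairs of an age are not separate observations. With 2 libraries in the RV at P7, they mirror each other: LV replicate 1 gave 0.329 with RV replicate 1 and -0.329 with RV replicate 2. The labels do not say that a number marks an animal, so the pairing comes from the data, and the block is an alternative. Members and lists were chosen with earlier results of these data known. Alternatives were another pseudocount, filter, scaling and entry rule, the block, voom on recovered reads, and leaving libraries out.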

Additional observations from a re-analysis of the deposited data

How the results depend on the processing

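No call changed direction under any alternative run. Leaving out the 7 libraries low in NM_008710 and voom on recovered reads were chosen after seeing the data, and 2 planned count tests were not run because the deposited unit is RPKM. No share of all entries called was taken for voom, for the fit without a filter, or with 1 library or the 7 libraries left out. A shift in the counts from those fits thus cannot be told from a shift in the call rate of all entries. Between P7 and P0, the counts of 17 members called in the RV and 21 in the LV stayed between 15 and 19 and between 17 and 21 when 1 library was left out, and were 23 and 23 with upper-quartile scaling, 19 and 21 with voom, and 13 and 13 without the 7 libraries, a fit whose spread comes from the P0 groups alone.

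When 1 library was left out, the counts ranged from 5 to 15 (RV) and 5 to 10 (LV) between P3 and P0, from 1 to 6 (RV) and 5 to 9 (LV) between P7 and P3, and from 0 to 1 for RV against LV at P0 and averaged over ages. They were 0 throughout at P3 and P7 and for the chamber difference. Counts without the 7 libraries are not given for these steps either. Without a filter on low values, which tests all 45 members, the RV counts were 8 between P3 and P0 (7 of the 29 tested otherwise, and Mmp8) and 3 between P7 and P3. With upper-quartile scaling the P7 against P3 counts were 9 (RV) and 12 (LV), and 1 member each was called for RV against LV at P0 and averaged over ages. Summing the entries of a gene also gave 1 at P0. With the replicate block, RV against LV gave 2 members at P0, 3 at P3 and 5 averaged over ages. Between ages the block also added Adamts9 in the LV (P3 against P0) and Adamts9, Adamts17 and Timp4 in the RV (P3 against P0), and ended Mmp16 (RV, P3 against P0) and Adamtsl1 (RV, P7 against P3). Apart from these and the calls named beside their results, it changed no other call. The causes of these shifts were not tested. Members below 1 RPKM rest on few reads, with at most 83 reads in a library for those under the filter, and 2 to 3 libraries a group limit the precision of each change.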
